A study of Mus musculus with 29 samples.

Results

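The core transforming growth factor beta (TGF-β) pathway genes Tgfb1, Nrros, Tgfbr1, Tgfbr2, Smad2, Smad3, Smad4, Smad7, Ski and Skil were followed across 25 CUT&RUN peak lists of mouse microglia and peritoneal macrophages. The genes were chosen by name, as 10 of 21911 protein-coding genes of GENCODE vM21 on GRCm38. For each gene, all listed regions that overlapped the gene body extended by 20 kb on each side were taken, and each chromosome, start and end was counted once per list. This gave 1337 of the 1008665 regions in the 25 lists. The windows of the 10 genes were longer than usual, with a median of 103 kb against 57.4 kb over all protein-coding genes, so they had more room for a region than the typical gene.

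TGF-β is secreted in a latent form that must be released before it can signal. NRROS is a membrane protein that anchors latent TGF-β1 on microglia and other myeloid cells. Active ligand binds the type II receptor TGFBR2, which phosphorylates the type I receptor TGFBR1. The activated type I receptor phosphorylates SMAD2 and SMAD3, which enter the nucleus with SMAD4, and SMAD7, SKI and SKIL restrain the pathway. In the adult brain, TGF-β signalling is known to be needed for the mature identity of microglia, the resident macrophages of the brain.

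In CUT&RUN, an antibody directs a protein A-tethered nuclease to a chromatin protein, and the released DNA is sequenced. IRF8, an interferon regulatory factor of myeloid cells, was mapped through GFP in IRF8-EGFP mice, in sorted microglia and in peritoneal macrophages. Microglia came from pups at postnatal day 9 (P9; 4 libraries, which the labels give as 4 of 7), from pups at postnatal day 14 (P14; 3 libraries) and from adult mice (3 libraries), and there were 3 macrophage libraries. The macrophage libraries carry that name only in their titles, while their source label names microglia. PU.1 (the ETS family factor that defines the myeloid lineage), H3K27ac (a mark of active promoters and enhancers) and H3K4me1 (a mark of enhancers) were mapped in sorted microglia of adult WT and IRF8KO (KO) mice, with 2 libraries for each target and genotype (for KO H3K27ac, 2 of 3 per the labels). All samples came from female mice. The labels give an age of 3 months for every sample, which goes against the P9 and P14 titles; the titles were followed there, 3 months was taken for adult microglia, and no other age is given for the macrophage mice. Per the labels, cells for transcription factors were crosslinked with 1% paraformaldehyde for 10 min. The labels do not say whether replicates came from separate animals, how the knockout was made or whether it was in all cells, and these lists hold no measure of IRF8 protein or RNA that could check it.

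The libraries had between 7.25 M and 24.7 M fragments (M, 1e6), and KO H3K27ac replicate 2 had 8.57 M. The IRF8 lists held 1168 to 2068 regions at P9, 7931 to 19238 at P14, 17048 to 29661 in adults and 9787 to 23162 in macrophages, so list length differed between the stages. H3K27ac in WT microglia was present at the promoters of 7 of 8 microglia markers (not Tmem119), at 2 of 4 oligodendrocyte markers (Mbp and Mog), at 1 of 2 endothelial markers (Pecam1) and at none of 6 peritoneal macrophage, 4 neuron, 4 astrocyte and 2 T cell markers. In the macrophage libraries, IRF8 was listed at the promoters of 3 of 6 peritoneal macrophage markers (Gata6, Icam2 and Timd4). Below, a consensus region is a merged region listed in at least 2 libraries of its group. Distances are from the gene start to the centre of a region, negative upstream. Fold enrichment over the control library (IgG) is the authors' value for a region and depends on the depth and control of its list; folds of different libraries are set side by side as descriptions, with no test.

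The sequences that the IRF8 and PU.1 results turn on are shown first, as the 201 bases around the summit of a region on the plus strand of GRCm38.p6, each named by the distance of the region's centre. The first 6 are the strongest adult IRF8 regions of 6 genes, and the last 5 are the PU.1 regions of WT microglia that had no region in either KO library; this second set was chosen after its values were seen. Capitals mark GGAAGT, the core of sites bound by ETS factors such as PU.1, or its reverse complement. The strongest Tgfbr2 region lay at the 3′ end of the gene and is not printed. By the rule on which genes are shown, the regions of Smad2, Smad4 and Smad7 were neither printed nor searched for motifs. The windows are Tgfb1 chr7:25706697-25706897, Nrros chr16:32124622-32124822, Tgfbr1 chr4:47333404-47333604, Smad3 chr9:63740498-63740698, Ski chr4:155201122-155201322 and Skil chr3:31106856-31107056 for IRF8. For the lost PU.1 regions they are Tgfb1 chr7:25683777-25683977, Tgfbr1 chr4:47333666-47333866 and chr4:47356617-47356817, and Tgfbr2 chr9:116161162-116161362 and chr9:116166133-116166333.
Tgfb1 IRF8 region at 19.6 kb, downstream of the gene: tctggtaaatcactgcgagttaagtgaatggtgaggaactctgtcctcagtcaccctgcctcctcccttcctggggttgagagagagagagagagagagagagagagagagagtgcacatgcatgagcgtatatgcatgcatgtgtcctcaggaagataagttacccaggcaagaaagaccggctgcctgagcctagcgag
Nrros IRF8 region at 41.0 kb, downstream of the gene: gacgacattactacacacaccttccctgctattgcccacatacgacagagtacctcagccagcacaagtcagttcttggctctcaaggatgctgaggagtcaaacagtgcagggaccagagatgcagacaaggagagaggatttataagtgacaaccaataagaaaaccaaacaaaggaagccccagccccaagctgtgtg
Tgfbr1 IRF8 region at -19.8 kb, upstream of the gene: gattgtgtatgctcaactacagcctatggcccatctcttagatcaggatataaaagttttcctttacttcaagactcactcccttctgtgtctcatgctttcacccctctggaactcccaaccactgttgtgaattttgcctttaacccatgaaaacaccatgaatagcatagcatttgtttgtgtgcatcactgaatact
Smad3 IRF8 region at 17.7 kb, intron: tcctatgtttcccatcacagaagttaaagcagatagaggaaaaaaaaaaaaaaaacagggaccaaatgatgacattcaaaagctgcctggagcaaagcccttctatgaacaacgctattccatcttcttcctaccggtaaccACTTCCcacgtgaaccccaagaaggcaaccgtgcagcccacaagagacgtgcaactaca
Ski IRF8 region at 21.4 kb, intron: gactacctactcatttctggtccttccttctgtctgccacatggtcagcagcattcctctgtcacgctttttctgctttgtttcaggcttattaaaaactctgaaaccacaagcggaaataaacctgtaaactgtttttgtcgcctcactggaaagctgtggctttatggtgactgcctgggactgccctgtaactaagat
Skil IRF8 region at 10.9 kb, intron: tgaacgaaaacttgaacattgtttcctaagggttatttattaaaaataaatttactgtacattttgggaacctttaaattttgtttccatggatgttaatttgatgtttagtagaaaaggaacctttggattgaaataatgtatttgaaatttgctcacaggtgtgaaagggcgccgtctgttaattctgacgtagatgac
Tgfb1 lost PU.1 region at -3.24 kb, upstream of the gene: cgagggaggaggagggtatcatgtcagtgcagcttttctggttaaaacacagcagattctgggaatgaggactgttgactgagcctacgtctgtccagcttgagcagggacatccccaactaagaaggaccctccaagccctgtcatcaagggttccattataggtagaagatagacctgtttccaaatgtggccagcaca
Tgfbr1 lost PU.1 region at -19.6 kb, upstream of the gene: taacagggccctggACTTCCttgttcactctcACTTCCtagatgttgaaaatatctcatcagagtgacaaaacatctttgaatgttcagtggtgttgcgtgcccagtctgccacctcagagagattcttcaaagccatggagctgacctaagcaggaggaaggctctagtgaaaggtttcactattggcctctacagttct
Tgfbr1 lost PU.1 region at 3.66 kb, intron: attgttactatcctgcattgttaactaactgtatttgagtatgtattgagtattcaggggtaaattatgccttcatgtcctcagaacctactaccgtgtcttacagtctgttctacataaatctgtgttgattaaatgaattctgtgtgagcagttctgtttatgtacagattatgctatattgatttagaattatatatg
Tgfbr2 lost PU.1 region at 13.8 kb, intron: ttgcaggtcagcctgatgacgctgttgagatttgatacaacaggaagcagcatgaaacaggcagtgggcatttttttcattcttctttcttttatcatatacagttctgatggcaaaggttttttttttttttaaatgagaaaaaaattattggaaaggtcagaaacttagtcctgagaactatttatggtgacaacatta
Tgfbr2 lost PU.1 region at 8.96 kb, intron: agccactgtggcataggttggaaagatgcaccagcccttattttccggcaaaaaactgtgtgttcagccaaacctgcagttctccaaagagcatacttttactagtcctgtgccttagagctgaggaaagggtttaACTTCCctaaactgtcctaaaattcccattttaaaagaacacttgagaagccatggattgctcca

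GGAAGT was found, on either strand, in 1 of 7 windows of the strongest adult IRF8 regions searched (Smad3; the Tgfbr2 window was searched too, and Smad2, Smad4 and Smad7 were not) and in 2 of 5 windows of lost PU.1 regions. The lost PU.1 region upstream of Tgfbr1 held it 2 times, and the Tgfbr2 region at 8.96 kb held it 1 time. In windows of the same length, 18.5% of all 16934 adult IRF8 consensus regions and 25.8% of all 5358 WT PU.1 consensus regions held it. A composite ETS and IRF site (GGAANNGAAA) and a tandem IRF site (GAAANNGAAA), searched on both strands with overlaps allowed, were in 0 of the 7 and 0 of the 5 windows. They were in 3.12% and 3.01% of all adult IRF8 windows, and in 4.22% and 3.25% of all WT PU.1 windows.

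The first comparison asked at which stage IRF8 was listed at these genes. Consensus IRF8 regions were in the windows of 2 of 10 genes at P9 (Tgfb1 and Tgfbr1), 8 at P14 (not Smad2 or Smad4) and 10 in adults. In macrophages 7 genes had one (not Tgfbr1, Smad4 or Smad7). Over all protein-coding genes the shares were 7.00%, 32.0%, 50.6% and 39.9%, in the same order. With all lists cut to the same length (the 1168 regions of lowest p), only 1 gene had a consensus region at P9, 1 at P14, 2 in adult microglia and 2 in macrophages. Most of the difference between stages was then not seen. The cut leaves few regions in each group by construction, so it cannot decide on that difference or on the order of P14 and macrophages. The 10 windows together held 3 P9 consensus regions, 28 of P14, 48 of adults and 27 of macrophages. These numbers depended on single libraries: 1 remained for P9 without its replicate 1 or 3, 16 for P14 without its replicate 2, 27 for adults without their replicate 2, and 10 or 12 for macrophages without their replicate 1 or 2. The 2 genes at P9 rested on few libraries: when replicate 1 or replicate 3 was left out, 1 of them still had a consensus region.

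**Figure D1:**
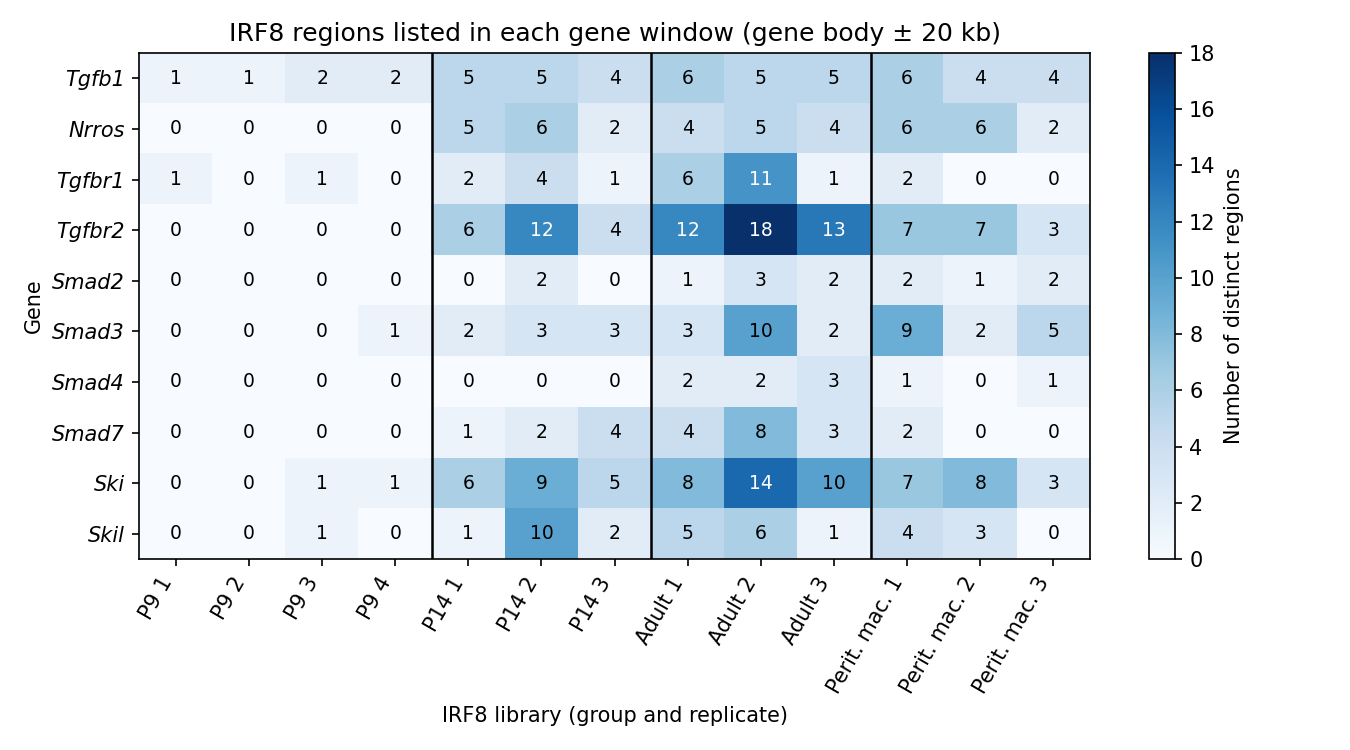
Number of distinct IRF8 regions listed in each gene window (rows) in each of the 13 IRF8 libraries (columns, by group and replicate); darker cells hold more regions. The P9 columns hold 0 to 2 regions per gene, and the highest cell is Tgfbr2 in adult replicate 2 with 18.

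A trend to more regions per library from P9 over P14 to adults was called at 8 of 10 genes. By an exact permutation test of the Jonckheere-Terpstra trend (two-sided, 4200 assignments, Benjamini-Hochberg adjusted over 16449 genes), the adjusted p was 0.0156 for Tgfbr2 and Ski, 0.0180 for Smad7, 0.0211 for Tgfb1, 0.0283 for Smad3 and Smad4, 0.0379 for Smad2 and 0.0424 for Tgfbr1. Skil (adjusted p = 0.0585) and Nrros (adjusted p = 0.0608) did not pass this exact test. The same test called an increase at 46.0% of all genes tested and a decrease at 0. At an unadjusted p under 0.05, 10 of the 10 genes passed, as did 52.3% of all genes tested. The 16449 genes tested were those with an IRF8 region in at least 1 of the 10 libraries; without this filter, over 21911 genes, 6 of the 10 passed, and Tgfbr1 (adjusted p = 0.0564) and Smad2 (adjusted p = 0.0505) did not pass the exact test, beside 26.8% of all genes called. The rise in list length from P9 to adults moved with this result: per 1000 listed regions, the 10 windows held 0.856 to 3.20 regions at P9, 2.75 to 3.52 at P14 and 1.96 to 2.99 in adults (macrophages, 1.82 to 2.04), and these ranges overlapped between the microglia stages. When all lists were cut to the 1168 regions of lowest p, the exact test called 0 of 8 genes with a region (0 at an unadjusted p under 0.05) and 0 of 3893 genes in all (147 at an unadjusted p under 0.05). This cut leaves fewer regions per gene by construction. Without any 1 of the 4 P9 libraries 3 of the 10 genes passed (Tgfbr2, Smad7 and Ski), beside 9.73% to 10.8% of all genes. Without adult replicate 1, 5 genes passed (25.9% of all), without adult replicate 2, 4 passed (12.2% of all), and without P14 replicate 2, 10 passed (49.6% of all). With a −log10 p of at least 10 required, 2 of the 10 passed (Ski and Nrros; 16.8% of all genes). In gene bodies alone 5 passed (18.4% of all), and with 50 kb flanks 10 passed, Skil and Nrros included (62.5% of all). The P9, P14 and adult lists were called against different controls, so stage and control cannot be told apart.

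Tgfb1 encodes the main TGF-β ligand of microglia (chromosome 7, 25687002 to 25705077, plus strand). IRF8 regions in its window numbered 1, 1, 2 and 2 in the P9 libraries, 5, 5 and 4 at P14, 6, 5 and 5 in adults and 6, 4 and 4 in macrophages. Each P9 library was below each later library, and the adult and macrophage libraries overlapped. All 5 merged IRF8 regions were shared by P14, adult and macrophage consensus sets, and 2 of them were already present at P9. One of those (25679996 to 25681300) was centred at -6.35 kb, over the promoter of the neighbouring gene B9d2. The other (25705496 to 25707644, 19.6 kb, downstream of the gene) was listed in 3 of 4 P9 libraries, with fold enrichments of 5.44, 4.68 and 7.88. At that region the fold was 8.33, 11.7 and 7.45 at P14, 18.1, 22.4 and 7.26 in adults, and 17.4 and 15.4 in macrophage replicates 1 and 2, with no region in macrophage replicate 3. The adult and macrophage folds overlapped there.

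PU.1 was found in the Tgfb1 window at 3 WT consensus regions, of which 2 coincided with those early IRF8 regions and were also listed in both KO libraries. At the -6.35 kb region, PU.1 fold enrichment was 20.7 and 14.5 in WT and 26.7 and 22.6 in KO, with both KO values above both WT values. At the downstream region it was 15.2 and 5.17 in WT and 7.74 and 4.97 in KO, so the genotypes overlapped. The PU.1 region between them (25683509 to 25684021, -3.24 kb) had folds of 10.6 and 8.94 in WT and no region in either KO library. H3K27ac was listed there in both WT libraries (5.55 and 13.1) and in KO replicate 1 (4.65). A KO PU.1 region with none in WT (25719160 to 25719750, 32.5 kb, at the promoter of Ccdc97) had folds of 3.66 and 3.78.

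Nrros (chromosome 16, 32142785 to 32165594, minus strand) had no IRF8 region in any P9 library. It had 5, 6 and 2 at P14, 4, 5 and 4 in adults and 6, 6 and 2 in macrophages, and these 3 groups overlapped. Each of its 5 adult consensus regions was also a macrophage consensus region. The strongest in adults (32124235 to 32125048, 41.0 kb, downstream of the gene) had folds of 18.2, 11.1 and 4.67 in adults, 6.66, 13.7 and 6.44 at P14 and 6.74 and 6.42 in macrophages. The order differed at the region centred at -5.59 kb (32170867 to 32171499, upstream), with folds of 17.5, 13.0 and 4.15 in macrophages and 7.78 and 10.3 in adult replicates 1 and 2. Adult replicate 3 had no region there, and the groups overlapped. PU.1 at -11.8 kb had folds of 7.29 and 7.93 in WT and 5.36 in KO replicate 2, with none in KO replicate 1.

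Tgfbr1 (chromosome 4, 47353222 to 47414931, plus strand) encodes the type I receptor kinase. Its IRF8 regions numbered 1, 0, 1 and 0 at P9, 2, 4 and 1 at P14, 6, 11 and 1 in adults and 2, 0 and 0 in macrophages. The adult libraries were uneven, and adult replicate 3, which had the fewest fragments of the 13 libraries, was level with a P14 library and below macrophage replicate 1. One region was the same from P9 to adults: 47332751 to 47334112, centred at -19.8 kb, at the edge of the window. It had folds of 4.78 and 4.68 in P9 replicates 1 and 3, 8.75, 11.9 and 4.97 at P14, 11.9, 18.6 and 5.28 in adults, and 5.14 in macrophage replicate 1 with none in the other macrophage libraries. The other 4 were consensus regions in adults alone (2 of them were also listed in P14 replicate 2) and were listed in adult replicates 1 and 2 but not 3: at the promoter (-0.474 and 2.00 kb) and in introns (5.05 and 45.3 kb).

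Both WT PU.1 consensus regions of Tgfbr1 were lost in KO. The upstream region (47333062 to 47334178, -19.6 kb) overlapped the IRF8 region present since P9 and had PU.1 folds of 6.56 and 5.86 in WT, with none in either KO library. H3K27ac remained listed at it in all 4 libraries, with folds of 9.87 and 13.7 in WT and 8.59 and 4.31 in KO. The intronic region (47356667 to 47357092, 3.66 kb) was weak in WT, with folds of 4.54 and 4.14, and overlapped IRF8 in adult libraries only. Elsewhere in the window KO PU.1 replicate 1 had 1 region and replicate 2 had 2, none of them shared by both. No H3K27ac consensus region of Tgfbr1 was lost (0 of 7; a limit of 3 counts allows a share of up to 42.9%).

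**Figure D2:**
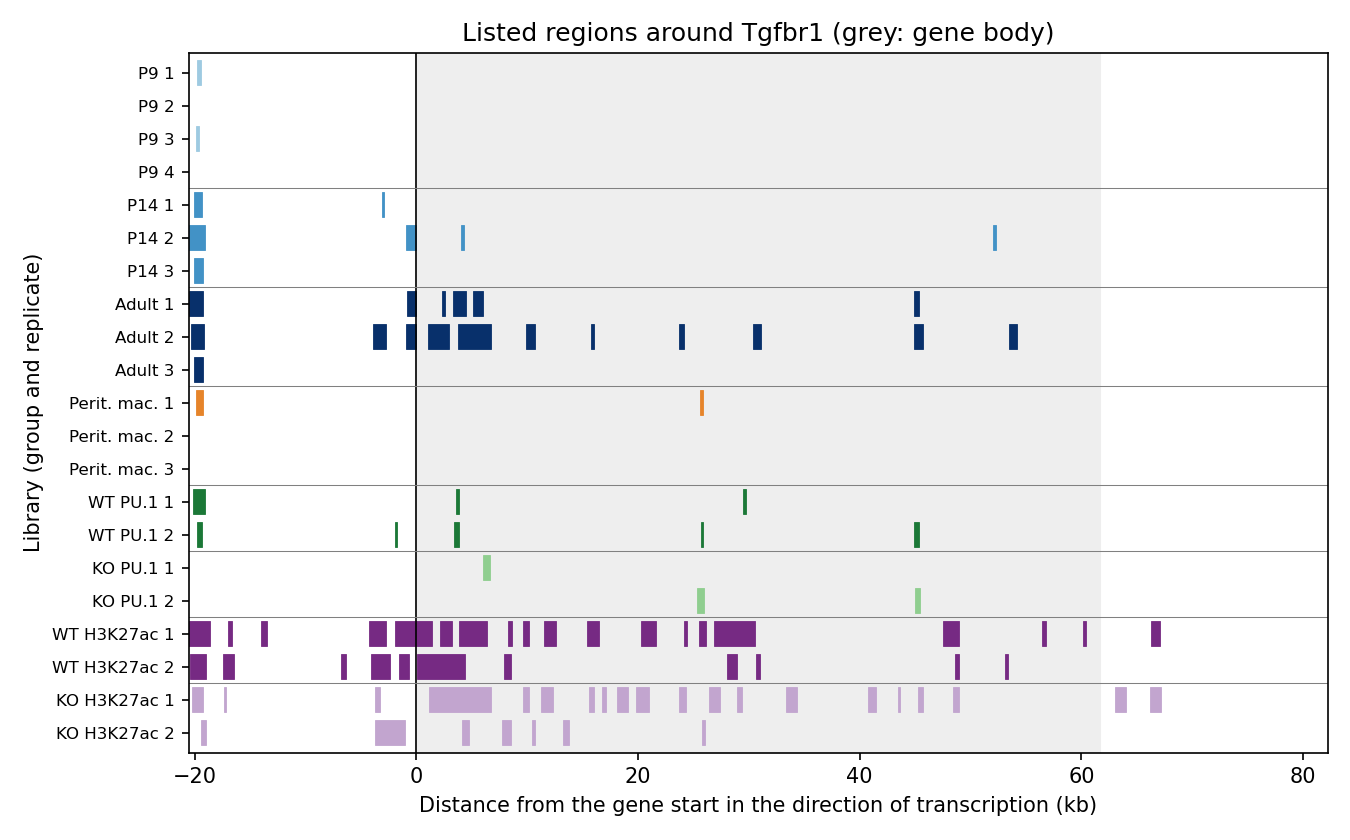
Regions listed around Tgfbr1 by distance from the gene start (kb, x axis) in 21 libraries (rows, by group and replicate); the grey area is the gene body. At -19.8 kb IRF8 is listed in 2 P9, 3 P14 and 3 adult libraries and PU.1 in both WT libraries but no KO library.

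Tgfbr2 (chromosome 9, 116084293 to 116175360, minus strand) encodes the ligand-binding type II receptor and had the largest number of adult IRF8 consensus regions of the 10 genes, 13. The libraries listed 0 regions at P9, 6, 12 and 4 at P14, 12, 18 and 13 in adults and 7, 7 and 3 in macrophages. Every adult library was above every macrophage library and above or level with every P14 library. Of its 14 merged IRF8 regions, 7 were in the adult consensus alone, all of them intronic, 4 were shared by P14, adults and macrophages, 2 by P14 and adults, and 1 (29.9 kb) was in the P14 consensus alone. Over all merged IRF8 regions of the genome the shares were 31.2%, 13.6%, 13.0% and 1.91%, in the same order. The strongest (116083526 to 116085697, 90.7 kb, at the 3′ end of the gene) had folds of 5.10, 12.1 and 3.72 at P14, 15.6, 20.3 and 13.5 in adults and 8.37, 7.95 and 5.12 in macrophages. The adult libraries were the highest there and did not overlap the other groups, but the region was chosen by its rank in the adult lists, which favours this.

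PU.1 regions of Tgfbr2 were divided in the knockout. The region at the 3′ end (91.2 kb) was listed in all 4 libraries, with folds of 12.6 and 7.59 in WT and 8.42 and 9.95 in KO. A weaker intronic region (29.7 kb), where IRF8 was in 1 adult library, had folds of 4.08 and 5.52 in WT and 3.43 in KO replicate 1. Lost were the intronic regions 116161154 to 116161990 (13.8 kb), with WT folds of 7.57 and 4.44, and 116166054 to 116166745 (8.96 kb), with WT folds of 5.51 and 3.49. IRF8 was listed at both in 3 adult, 2 P14 and 2 macrophage libraries. H3K27ac was still listed in KO at both, in 2 libraries at the first (8.95 and 4.79, against 10.5 and 11.8 in WT) and in replicate 1 at the second (6.36). One intronic PU.1 region was gained (116123056 to 116123789, 51.9 kb), with KO folds of 5.49 and 4.84, where IRF8 was listed in 3 adult libraries of IRF8-EGFP mice.

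**Figure D3:**
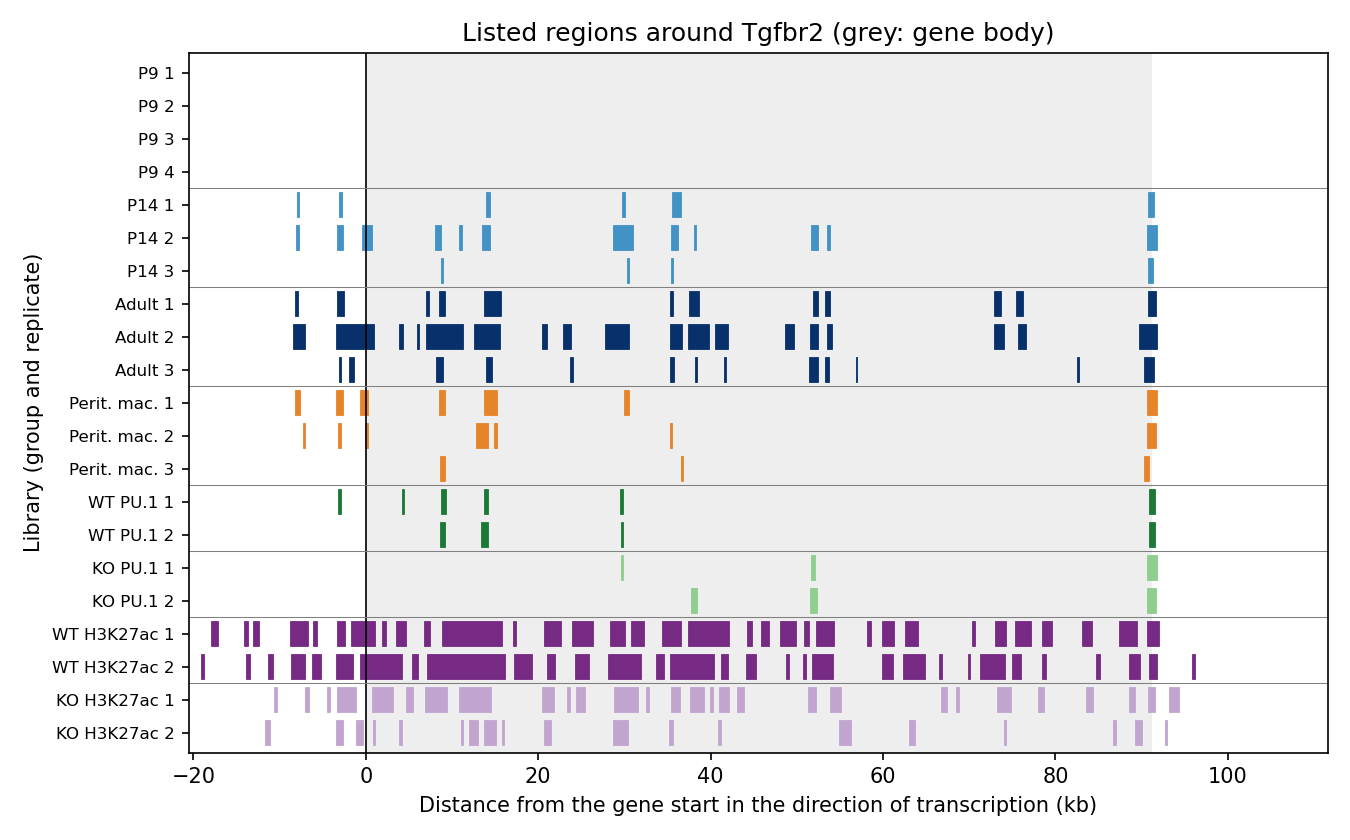
Regions listed around Tgfbr2 by distance from the gene start (kb, x axis) in 21 libraries (rows, by group and replicate); the grey area is the gene body. The P9 rows are empty, PU.1 at 8.96 and 13.8 kb is in WT libraries only, and PU.1 at 91.2 kb is in all 4 libraries.

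Among the signal transducers, Smad3 (chromosome 9, 63646767 to 63757994, minus strand) carried most IRF8 regions. They numbered 0, 0, 0 and 1 at P9, 2, 3 and 3 at P14, 3, 10 and 2 in adults and 9, 2 and 5 in macrophages, and the 3 later groups overlapped. Its strongest adult region (63739301 to 63741201, intron, 17.7 kb) had folds of 9.86, 14.7 and 8.21 in adults, 5.69, 10.0 and 5.16 at P14, 6.0 in P9 replicate 4 and 5.46 in macrophage replicate 1. Smad2 (chromosome 18, 76241580 to 76310963, plus strand) had 1, 3 and 2 regions in adults, 2, 1 and 2 in macrophages, 2 in P14 replicate 2 and none in the other P14 or P9 libraries. Its single adult consensus region was at the promoter (0.0130 kb), with folds of 11.4, 5.62 and 4.69 in adults and 6.85, 5.59 and 4.79 in macrophages. Smad4 (chromosome 18, 73639009 to 73703780, minus strand), the common partner of SMAD2 and SMAD3, had no region at P9 or P14, 2, 2 and 3 in adults and 1, 0 and 1 in macrophages. Its consensus region was intronic (73692836 to 73694074, 10.3 kb), with adult folds of 4.53, 4.41 and 10.1. None of these 3 genes had a PU.1 consensus region in WT or KO.

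Smad7 (chromosome 18, 75367529 to 75395935, plus strand), a TGF-β-induced inhibitor that blocks the type I receptor, had 0 regions in the P9 libraries, 1, 2 and 4 at P14, 4, 8 and 3 in adults and 2, 0 and 0 in macrophages. Of its 4 adult consensus regions 3 were consensus regions in adults alone and none was in the macrophage consensus. Of all merged IRF8 regions of the genome, 31.2% were in adults alone. The strongest (75398608 to 75399808, 31.7 kb, downstream) had folds of 8.30, 17.8 and 5.86 in adults, 5.83 in P14 replicate 1 and 4.17 in macrophage replicate 1. Ski (chromosome 4, 155154075 to 155222592, minus strand) encodes a repressor that binds SMAD complexes. It had 0, 0, 1 and 1 regions at P9, 6, 9 and 5 at P14, 8, 14 and 10 in adults and 7, 8 and 3 in macrophages. Adult and P14 libraries overlapped, as did adult and macrophage libraries. Its strongest region (155200701 to 155201713, intron, 21.4 kb) had folds of 11.4, 17.1 and 9.97 in adults, 10.0, 9.76 and 6.44 at P14 and 8.25 and 6.70 in macrophage replicates 2 and 3.

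Skil (chromosome 3, 31095058 to 31122577, plus strand) encodes SnoN, a close relative of SKI. Its regions numbered 0, 0, 1 and 0 at P9, 1, 10 and 2 at P14, 5, 6 and 1 in adults and 4, 3 and 0 in macrophages, with overlap between all 3 later groups. The adult consensus had a region at the promoter (31093135 to 31097673, 0.346 kb; folds of 6.74, 7.09 and 4.10), one in an intron (31104105 to 31107785, 10.9 kb; 7.23 and 7.04) and one downstream (31134700 to 31135366, 40.0 kb). For PU.1, all 3 WT PU.1 regions of Ski were listed in both KO libraries, at -12.8 kb with folds of 12.6 and 14.8 in WT and 19.0 and 17.1 in KO, at 21.4 kb with 17.1 and 9.76 against 17.2 and 16.2, and at 59.5 kb with 17.7 and 7.54 against 17.6 and 11.9. Skil had no WT PU.1 consensus region and 1 gained in KO (31083919 to 31084406, -10.9 kb), with folds of 5.12 and 3.33, where IRF8 was listed in 2 macrophage libraries and in no microglia library.

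Adult microglia and macrophages were compared over 3 libraries each, where an exact two-sided permutation p cannot go below 0.1, so no test was made. Region numbers did not overlap at 3 of 10 genes, Tgfbr2, Smad4 and Smad7, with every adult library above every macrophage library. This was so at 9.09% of the 17479 protein-coding genes with a region in these 6 libraries, and the reverse at 1.45% of them and at 0 of the 10 genes. Whole lists held 17048 and 29661 regions in adults and 23162 and 16991 in macrophages in batch 1, which overlapped, and 22420 and 9787 in batch 2; the part of list length in these differences was not tested. Within batch 1 (replicates 1 and 2 of each) the mean adult number exceeded the macrophage mean by 8 at Tgfbr2, 5 at Smad7 and 1.5 at Smad4. Within batch 2 (replicate 3 of each) the differences were 10, 3 and 2. Tgfbr1 had means of 6 and 0.667, with differences of 7.5 in batch 1 and 1 in batch 2. Of the 48 adult regions 24 (50%) overlapped a macrophage region, against 39.5% of all adult regions. In the other direction 24 of 27 macrophage regions (88.9%) overlapped an adult region, against 56.3% of all. The first share was 33.3% when 50% of a region had to be covered and 22.2% for regions in all libraries. Without macrophage replicate 1 the first share was 20.8%, and without macrophage replicate 2 it was 22.9%. The second was 59.3% without adult replicate 2.

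The overlap of adult IRF8 regions at these genes with WT chromatin marks was counted next. H3K27ac consensus regions of WT microglia overlapped 46 of 48 (95.8%, exact 95% binomial interval 85.7 to 99.5%), against 81.8% of all adult IRF8 regions. H3K4me1 overlapped 47 of 48 (97.9%), against 91.3%. The regions without H3K27ac were the Tgfbr1 intronic region at 45.3 kb and the Ski region at 69.9 kb, and the region without H3K4me1 was at the Ski promoter (-1.02 kb). Both shares depended on the lists: with lists of equal length 46.3% (19 of 41) overlapped H3K27ac, and with stricter regions 33.3% (10 of 30) overlapped H3K4me1. PU.1 overlapped 12 of 48 (25%, interval 13.6 to 39.6%), against 27% of all; the share was 12.5% when 50% of a region had to be covered and 47.8% with lists of equal length. The 12 were 3 regions each at Tgfb1, Tgfbr2 and Ski, 2 at Tgfbr1 and 1 at Nrros. Conversely, 12 of 13 WT PU.1 regions (92.3%, interval 64.0 to 99.8%) overlapped an adult IRF8 region, against 87.4% of all WT PU.1 regions. The Tgfbr2 region at 29.7 kb did not overlap one. By gene, 5 of 10 had a WT PU.1 consensus region (22.4% of all genes) and 10 of 10 a WT H3K27ac consensus region (61.7%). The intervals cover counting error only.

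In KO microglia, 5 of the 13 WT PU.1 consensus regions had no region in either library: 1 at Tgfb1, 2 at Tgfbr1 and 2 at Tgfbr2. This share of 38.5% (exact 95% binomial interval 13.9 to 68.4%) stood beside 25.1% over all WT PU.1 regions, which lies within the interval. The 5 lost regions had WT folds of 3.49 to 10.6, and the 8 regions still listed in at least 1 KO library had WT folds of 4.08 (Tgfbr2) to 20.7 (Tgfb1), so the ranges overlapped. The lost share was 53.8% (7 of 13) when absence from the KO consensus sufficed and 25% (6 of 24) with 50 kb flanks. Without WT replicate 2 it was 56% (14 of 25), counted over all regions of WT replicate 1. With a −log10 p of at least 10 required in each list, 3 of 8 WT regions (37.5%) were lost. Of the 5 above, the regions at Tgfb1 (-3.24 kb) and Tgfbr1 (-19.6 kb) were still lost. The other 3 were then no longer WT consensus regions, with 0 WT libraries at Tgfbr1 (3.66 kb) and Tgfbr2 (8.96 kb) and 1 at Tgfbr2 (13.8 kb), and with lists of equal length Tgfbr1 (3.66 kb) was in 1 WT library. Of 12 KO PU.1 regions 3 (25%) were gained, at Tgfb1, Tgfbr2 and Skil, against 16.5% of all KO PU.1 regions. At the same −log10 p of at least 10, 0 of 5 KO regions were gained. The share was 50% (6 of 12) when absence from the WT consensus sufficed, and 11.1% (1 of 9) with lists of equal length. The gained share was 41.7% without WT replicate 1. It was 41.2% (7 of 17) without KO replicate 2, counted over all regions of KO replicate 1. PU.1 replicate 2 of both genotypes was called at a looser q threshold (0.05, against 0.01) and with another control than replicate 1. With 2 libraries against 2, an exact two-sided p cannot go below 0.333, so the genotypes were not tested.

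**Figure D4:**
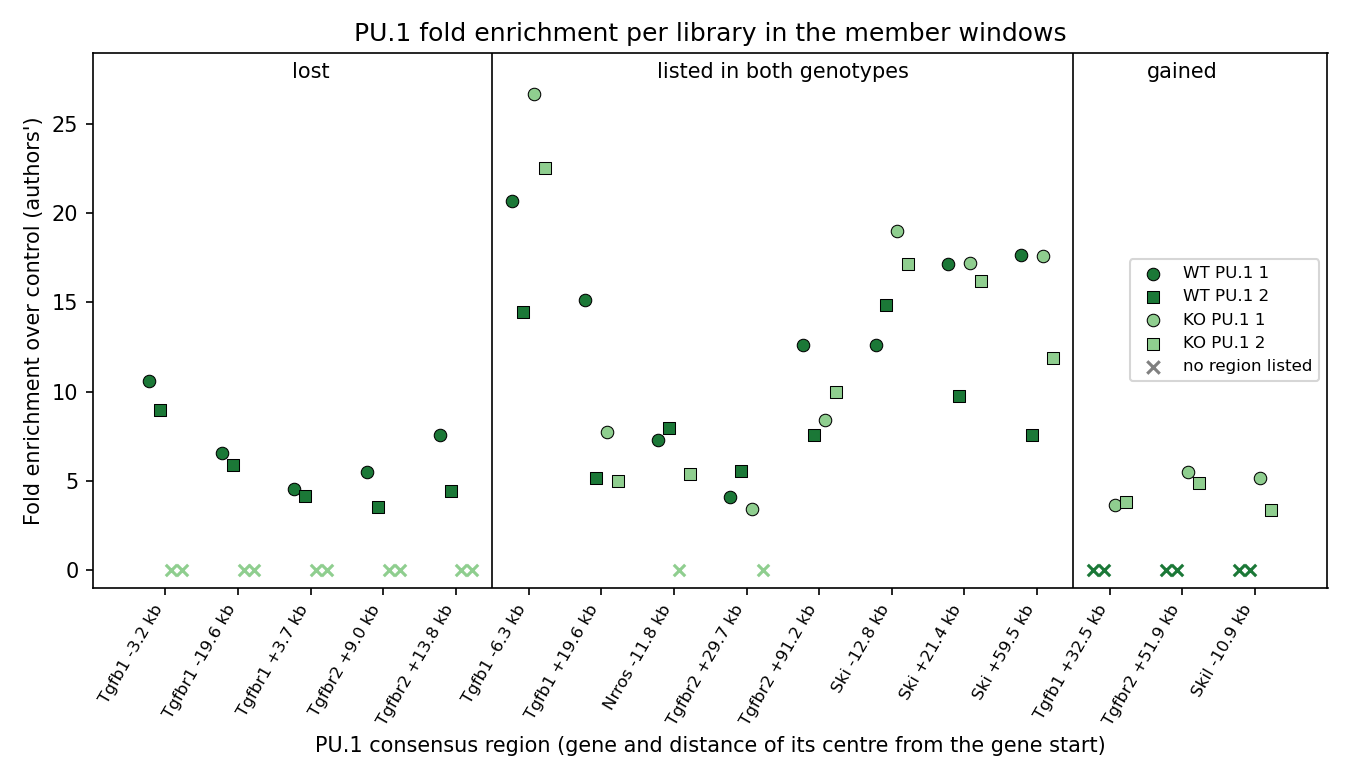
PU.1 fold enrichment over control (y axis, the authors' value) in each of 4 libraries for the 16 PU.1 regions in the windows, named by gene and distance on the x axis; crosses at 0 mark libraries with no listed region. The lost regions have WT folds from 3.49 (Tgfbr2) to 10.6 (Tgfb1), and the gained regions have KO folds from 3.33 (Skil) to 5.49 (Tgfbr2).

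Of 100 WT H3K27ac consensus regions in the windows 28 had none in either KO library. This share of 28% (interval 19.5 to 37.9%) was near the 34.0% over all WT H3K27ac regions. Losses were spread over 8 genes: 7 of 21 regions at Tgfbr2, 7 of 18 at Smad3, 3 of 8 at Smad4, 3 of 10 at Smad7, 3 of 11 at Ski, 2 of 9 at Skil, 2 of 5 at Nrros and 1 of 5 at Smad2. Tgfb1 (0 of 6) and Tgfbr1 (0 of 7) had none, but the KO consensus held 0 regions at Tgfb1 and 3 at Tgfbr1. KO replicates 1 and 2 listed 8 and 1 H3K27ac regions at Tgfb1, and 20 and 7 at Tgfbr1. Of 26 KO consensus regions 0 were gained, where a limit of 3 counts allows a share of up to 11.5% (the exact 95% binomial limit is 13.2%), against 10.9% over all KO regions. The KO libraries were unequal, with 88400 regions listed in replicate 1 and 31524 in replicate 2, and 128 and 62 of them in the 10 windows, against 168 and 151 in WT. Promoter H3K27ac of the microglia markers was in the KO consensus at 3 of 8, against 7 of 8 in WT. The oligodendrocyte markers went from 2 of 4 in WT to 0 in KO and the endothelial markers from 1 of 2 to 0, and the part of these differences in the losses was not tested. The share of lost regions was 78% when absence from the KO consensus sufficed, 77% when 50% of a region had to be covered and 60.5% at a −log10 p of at least 10. Without KO replicate 1 it was 68%. Without WT replicate 1 or 2 it was 46.4% (70 of 151) or 44.0% (74 of 168), counted over all regions of the WT library that was left. The gained share was 17.7% (11 of 62) without KO replicate 1 and 19.5% (25 of 128) without KO replicate 2. Both were counted over all regions of the KO library that was left.

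**Figure D5:**
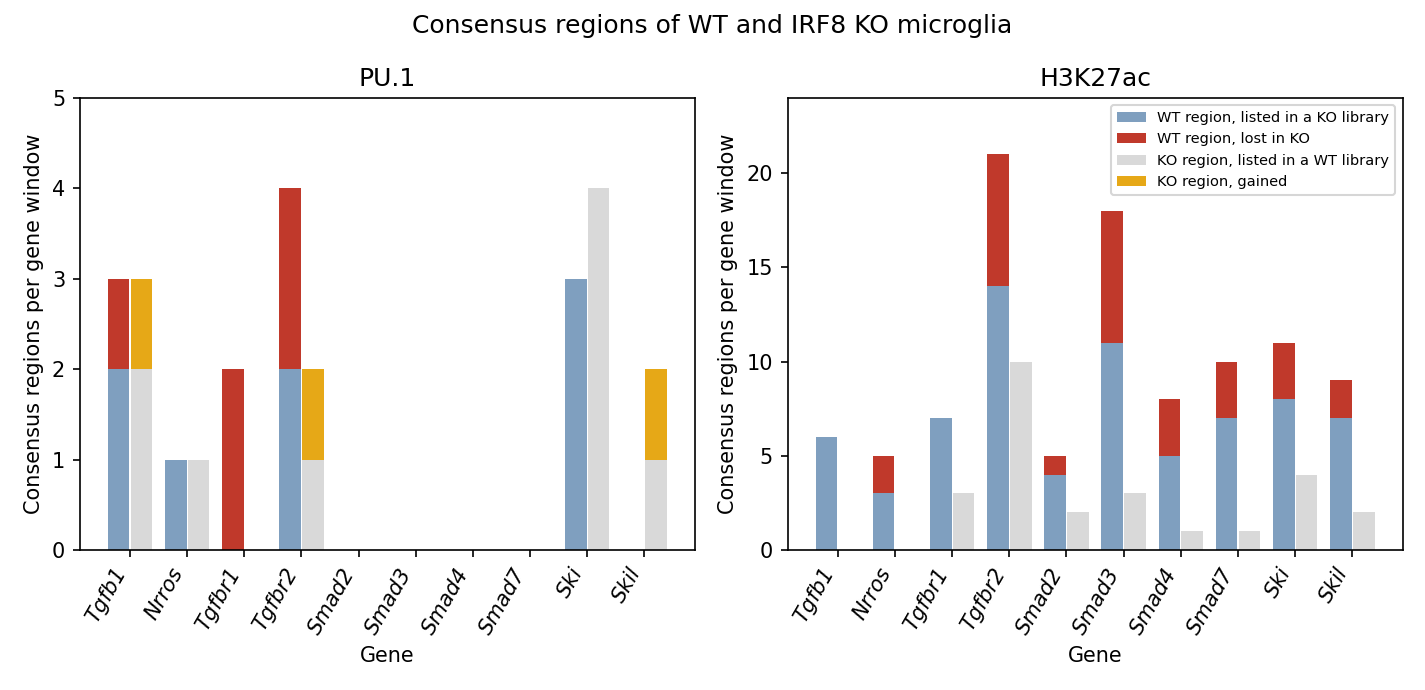
Consensus regions per gene window (y axis) for PU.1 (left) and H3K27ac (right) in WT (left bar of each gene) and KO (right bar) microglia; coloured parts are WT regions lost in KO and KO regions gained. PU.1 losses are at Tgfb1, Tgfbr1 and Tgfbr2, and H3K27ac losses are at 8 of 10 genes.

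H3K27ac within 1 kb of the gene start was followed in each library. At Smad4 (73701679 to 73704677, 0.602 kb) it was listed in both WT libraries, with folds of 6.79 and 6.54, and in neither KO library. At Smad7 (75365379 to 75368444, -0.618 kb) it had folds of 7.99 and 7.69 in WT and was in neither KO library, although other annotated starts of Smad7 had a region in both KO libraries. The lost Smad7 region overlapped an IRF8 region listed in 3 adult libraries (4.53, 6.30 and 6.85). At the Tgfbr1 start the folds were 5.24 and 8.18 in WT, with no region in either KO library. KO regions further from the start overlapped the same broad WT region, which therefore did not count as lost. Of the 4 annotated starts of Tgfbr1, 2 had a region in KO replicate 1 and 0 in KO replicate 2. H3K27ac was listed at the starts of Tgfbr2, Smad2 and Skil in all 4 libraries. The Tgfbr2 start had folds of 7.71 and 10.8 in WT and 5.37 and 6.23 in KO. The Smad2 start had folds of 10.2 and 8.51 in WT and 7.87 and 9.10 in KO, and the Skil start had 9.36 and 11.7 in WT and 5.68 and 5.55 in KO, so the genotypes overlapped at Smad2 and not at Tgfbr2 or Skil. The Nrros start had both WT libraries (6.68 and 6.48) and KO replicate 1 (6.80), and the Tgfb1 start had WT replicate 2 (2.99) and KO replicate 1 (4.65).

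Near the starts of Smad3 and Ski, WT consensus regions were lost while a neighbouring region was listed in a KO library. Smad3 lost 63758339 to 63759624 (-0.987 kb), with folds of 5.24 and 5.23 in WT, but KO replicate 2 had another region within 1 kb of the start (5.55). Smad3 also lost a region at another annotated start (63711977 to 63714289, 44.9 kb; 6.48 and 4.58). Ski lost 155223178 to 155224666 (-1.33 kb), with 4.55 and 6.46 in WT, and KO replicate 1 had another region within 1 kb of the start (3.11).

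Of the 28 lost H3K27ac regions 7 overlapped an adult IRF8 consensus region, and none of the 28 overlapped a WT PU.1 consensus region. Of all 100 WT regions in the windows, 40 overlapped adult IRF8 and 12 overlapped PU.1, near the 35.3% and 12.6% of all WT H3K27ac regions. Of the 12491 lost regions over the genome, 21.7% overlapped adult IRF8 and 5.07% overlapped PU.1. The IRF8 share of 7 of 28 (25%) was near that over the genome, and 28 regions are too few to set 0 apart from 5.07%. These 7 were the Smad7 and Ski regions near the gene start, the Tgfbr2 intronic region 116098195 to 116100349 (76.1 kb), the Smad3 intronic regions 63730598 to 63731672 (26.9 kb) and 63740049 to 63741229 (17.4 kb), and the Nrros regions 32123404 to 32125885 (41.0 kb, downstream) and 32170738 to 32172263 (-5.91 kb, upstream). The Smad3 region at 17.4 kb and the Nrros region at 41.0 kb lay over the strongest adult IRF8 region of their gene. Their H3K27ac folds in WT were 5.55 and 6.22 at Smad3 and 5.55 and 8.51 at Nrros.

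H3K4me1 had few lost or gained regions at these genes. Of 60 WT consensus regions 2 were lost (3.33%, against 13.0% over all), upstream of Tgfbr1 (47338816 to 47340244, -13.7 kb) and downstream of Smad3 (63644677 to 63646083, 112.6 kb). Of 51 KO regions 2 were gained (3.92%, against 23.8%), in an intron of Tgfb1 (25697881 to 25699548, 11.7 kb) and upstream of Skil (31076273 to 31078896, -17.5 kb). None of these 4 regions had IRF8 in any of the 13 libraries. When absence from the consensus of the other genotype sufficed, 13.3% were lost and 17.6% gained. The lost share was 5.13% to 8.33% when any 1 of the 4 libraries was left out. Without KO replicate 1 the gained share was 19.6% (19 of 97), and without KO replicate 2 it was 15.6% (14 of 90). Both were counted over all regions of the KO library that was left.

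A further 40 genes of the pathway were examined as a list. IRF8 consensus regions were in 5 of these 40 windows at P9, in 24 at P14, in 33 in the adult and in 26 in macrophages, against 7.00%, 32.0%, 50.6% and 39.9% of all genes. By the same exact permutation test 24 of the 40 rose with stage and none fell, beside 46.0% of all genes, and with lists of equal length no gene was called. They included the ligands and activators Tgfb2, Ltbp2, Lrrc32, Itgav, Itgb8 and Thbs1, the receptors and their partners Eng, Acvrl1, Acvr1, Acvr1b, Acvr2b and Fkbp1a, the transducers Smad1, Smad5, Tab1 and Map3k7, the regulators Smurf1, Smurf2, Usp15, Tgif1, Tgif2 and Pmepa1, and the target gene Tgfbi. PU.1 was lost in KO at 5 of 24 WT consensus regions (20.8%, against 25.1% of all), 1 each at Ltbp4, Bmpr2, Smad1, Smurf1 and Map3k7, and 4 of 14 KO regions were gained (28.6%, against 16.5%). H3K27ac was lost at 42 of 147 (28.6%, against 34.0%) and gained at 7 of 45 (15.6%, against 10.9%). The lost share was below that of all regions; the genes with at least 50% of 2 or more WT regions lost were Smad1 (6 of 10), Acvr2a (6 of 9), Acvr2b (4 of 7), Smurf1 (2 of 4), Tgfb2 and Ltbp2 (2 of 2 each), and Thbs1 and Tgif2 (1 of 2 each).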

How the data were processed

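Per the file headers, the authors ran MACS on single libraries (2.2.7.1 for IRF8 and PU.1, 2.2.6 for histone marks). The submitters' processing notes name mm10, Bowtie2 and Trim Galore. The q threshold was 0.01, or 0.05 for PU.1 replicate 2, and H3K4me1 used broad calling with p 0.01 and a minimum length of 1000 bp. The deposited values are the pileup signal, the −log10 p-value and the fold enrichment over the IgG control; −log10 p was ranked only within a list, and folds only describe regions. No IgG list was analysed here. Groups followed the sample titles. Regions sharing at least 1 bp were overlapping, and a consensus region was listed in at least 2 libraries. Where 1 of 2 libraries of a group was left out, all regions of the other were taken instead, which changes the set counted. Lost regions were WT consensus regions with no region in either KO library, and gained regions the reverse. Promoters reach 1 kb either side of an annotated start. Region strength was the mean within-list percentile of −log10 p. The strongest adult regions were thus chosen on the adult lists, which favours high adult folds at them. The stage trend used an exact permutation test, tested on simulated data. Genes and windows came from GENCODE vM21. Named were all 10 genes, and other pathway genes with a passing trend, a lost PU.1 region, or at least 50% of 2 or more WT H3K27ac regions lost; 1 gene that met this rule is not reported here by name, and Ltbp1 and Tgfbr3 were named outside it, after their values were seen. The genes and lists were chosen with earlier results of these data known. The p-values measure the spread between these libraries, which may be technical. Alternatives were stricter peaks, equal list lengths, other windows and overlaps, and leaving out libraries. Python 3.11.15, numpy 2.4.6, pandas 2.3.3 and scipy 1.17.1 were used.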

Additional observations from a re-analysis of the deposited data

Results flagged for a closer look

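In groups of 4 libraries, a value is singled out when its gap to the nearest other value takes up most of the range of the group, which for continuous values chance gives for about 1 in 20 groups. That rate does not hold for counts near 0, where a single region in 1 library always meets the criterion. Only the P9 group has 4 libraries. There, P9 replicate 4 listed 1 IRF8 region at Smad3 and the other P9 libraries 0, and P9 replicate 3 listed 1 IRF8 region at Skil and the others 0. Both are single regions.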

How the results depend on the processing

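Of the main values, 98 stayed within 1.5 times or within their counting interval under an alternative and 62 moved further. For small counts that interval is wide. For single genes the adjusted p kept its side of the threshold 93 times, was lost 58 times and was newly under it 7 times. The cause was not tested unless stated. Genes with an IRF8 consensus region at P9 (2) became 0 when a region had to be in all libraries or in the gene body, and 1 at a −log10 p of at least 10. With equal list lengths, which leave fewer regions by construction, P9, P14, adults and macrophages had 1, 1, 2 and 2. The order of P14 (8) and macrophages (7) thus turned, as it did in gene bodies (6 against 7) and with 50 kb flanks (8 against 9). Leaving out a library gave 1 to 2 at P9. The stage trend called 2 genes (1964 of all) at a −log10 p of at least 10, 0 (0) with equal lengths, 5 (2208) in gene bodies alone, 10 (11632) with 50 kb flanks, Skil and Nrros included, and 3 to 10 (1600 to 7976) with a library left out. Replicate numbers did not pair the libraries: same-numbered correlations ran from -0.0473 to 0.221, and in 5 of 18 pairs of a library and another stage the best match had the library's own number. With the replicate number as a block, 0 genes were called (0 of 16441; 5179, and 4 of the 10, at an unadjusted p under 0.05), where the smallest p is 0.00926. Gained PU.1 regions were 0% at a −log10 p of at least 10, 50% by consensus or with 50% covered and 11.1% with equal lengths. Without the filter on genes 6 of the 10 genes were called (5871 of 21911 in all). Lost H3K27ac regions were 78% when absence from the KO consensus sufficed, 77% when 50% of a region had to be covered, 60.5% at a −log10 p of at least 10, 38.9% with equal lengths and 36% to 68% with a library left out, which gave 3.85% to 19.5% for gained ones. Lost H3K4me1 regions were 13.3% by consensus, 0% at a −log10 p of at least 5 and 0% in gene bodies; gained ones were 17.6% by consensus, 0% with equal lengths and 7.84% to 19.6% with a library left out. Overlap of adult IRF8 with PU.1 was 12.5% with 50% covered and 47.8% with equal lengths. That with H3K27ac was 46.3% with equal lengths, and that with H3K4me1 was 33.3% for stricter regions, 82.9% with equal lengths and 100% in gene bodies. Adult regions in macrophages were 33.3% with 50% covered, 22.2% for regions in all libraries and 20.8% to 63.0% with a library left out. Macrophage regions in adults were 62.5% for regions in all libraries, 100% at a −log10 p of at least 10 and 59.3% to 100% with a library left out.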

Other observations

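Among the other pathway genes, Ltbp1, which encodes a protein that binds latent TGF-β in the extracellular matrix, was listed for IRF8 mainly in macrophages; it and Tgfbr3 were chosen after their values were seen. Its window held 18, 18 and 4 regions in the 3 macrophage libraries, 0, 0 and 3 in the adult microglia libraries and 0 in the P9 and P14 libraries. Its consensus regions numbered 13 in macrophages and 0 in adult microglia. Batch 1 holds the macrophage values of 18 and 18 and the adult values of 0 and 0, and batch 2 holds 4 and 3. Tgfbr3, which encodes a co-receptor that presents the ligand, had 2 consensus regions in macrophages and 0 in adult microglia, but its libraries overlapped, with 3, 3 and 0 regions in macrophages and 0, 0 and 3 in adults. These differences were not tested.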
